A study of Mus musculus with 48 samples.

Results

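The comparison asked how fluoxetine (FLX, 5 mg/kg) changed gene expression in the amygdala of mice that carry 1 working copy of *Brd1*. It holds the 16 libraries of *Brd1*+/- mice labelled FLX or vehicle, 8 in each group, out of 48 libraries in 6 groups of 8, and members were chosen by these labels alone. All 48, WT included, came from female mice labelled as strain C57BL/6NTac-Brd1, 8 to 11 weeks old, and the *Brd1*+/- mice were heterozygous for a targeted deletion made with loxP sites around exons 3 to 5. Vehicle was saline, and drug and saline were given under the skin once on each of 2 days. Mice went through the tail suspension test on the first day and the open field and forced swim tests on the second, and brains were taken 1 h after the swim, so vehicle and drug groups share this stress. The other groups used here for comparison are WT littermates with vehicle or FLX, and both genotypes with imipramine (IMN, 10 mg/kg). A 1 mm punch of the right amygdala gave 1 library per mouse, with gene levels in TPM (each gene's share of the transcripts in a library, corrected for length). TPM keeps no read depth, so no counting interval can be given for any value.

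*Brd1* encodes a scaffold protein of histone acetyltransferase complexes, which mark chromatin for transcription. Fluoxetine blocks the serotonin transporter and so raises serotonin outside the cell. Much of what follows concerns RNAs that code for no protein. 7SL is the RNA core of the signal recognition particle, which guides new secretory and membrane proteins to the endoplasmic reticulum, and mammalian genomes hold a few working copies and many decayed ones. Small Cajal body RNAs (scaRNAs) guide the chemical modification of spliceosomal RNAs. Mitochondrial tRNAs lie between the protein-coding genes of a long shared transcript and are cut out of it, which frees the mRNAs on either side. Malat1 is an abundant RNA that stays in the nucleus, and the Dlk1-Dio3 region is an imprinted cluster from which many microRNAs and small nucleolar RNAs (snoRNAs) are made in neurons. Where a noncoding gene sits wholly within the intron of a coding gene and shares its direction, its reads cannot be told by position from unspliced precursor RNA of the coding gene.

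Sequences are the annotated transcripts of GENCODE M21 on GRCm38, 5′ to 3′. The mitochondrial tRNA genes are shown because *mt-Tp* was the only one called higher with FLX (limma, adjusted *p* under 0.05) and because the 3 called lower sit side by side. *mt-Tp* (chrM:15356-15422, minus strand) encodes the proline tRNA, and capitals mark its anticodon. *mt-Th* (chrM:11546-11612), *mt-Ts2* (chrM:11613-11671) and *mt-Tl2* (chrM:11671-11741), for histidine, serine and leucine, follow each other on the plus strand between *mt-Nd4* and *mt-Nd5*.
mt-Tp: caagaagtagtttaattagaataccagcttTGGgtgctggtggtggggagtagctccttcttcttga
mt-Th: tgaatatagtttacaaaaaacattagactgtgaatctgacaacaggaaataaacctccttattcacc
mt-Ts2: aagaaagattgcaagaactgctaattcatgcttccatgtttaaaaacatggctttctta
mt-Tl2: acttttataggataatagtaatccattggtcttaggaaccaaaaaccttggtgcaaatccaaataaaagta

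*Mir1957a* (chr4:119129779-119129844, plus strand, inside an intron of *Slc2a1*) and *Scarna13* (chr12:105031075-105031349, minus strand) were the other genes called higher, and *Gm22009* (chr3:69085105-69085447, minus strand, inside an intron of *Kpna4*), annotated as a scaRNA, had the second lowest difference. The first 300 bases of *Gm22009* are given, with no part set in capitals.
Mir1957a: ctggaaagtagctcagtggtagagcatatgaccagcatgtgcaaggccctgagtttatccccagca
Scarna13: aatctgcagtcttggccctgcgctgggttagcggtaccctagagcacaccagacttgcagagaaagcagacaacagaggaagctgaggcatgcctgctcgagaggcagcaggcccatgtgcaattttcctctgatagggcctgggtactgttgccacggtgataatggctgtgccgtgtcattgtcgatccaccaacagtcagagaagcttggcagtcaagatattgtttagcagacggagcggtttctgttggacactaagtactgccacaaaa
Gm22009: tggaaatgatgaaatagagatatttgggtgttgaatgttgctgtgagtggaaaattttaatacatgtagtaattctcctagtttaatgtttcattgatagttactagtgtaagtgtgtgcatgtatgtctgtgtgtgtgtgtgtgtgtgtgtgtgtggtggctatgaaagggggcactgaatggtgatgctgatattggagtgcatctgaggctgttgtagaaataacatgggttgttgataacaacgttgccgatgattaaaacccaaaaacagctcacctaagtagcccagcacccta

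Of 13 called genes annotated as microRNAs, 3 have mature sequences in RefSeq (GRCm38.p6), all from the Dlk1-Dio3 region. The libraries measured annotated precursors and not mature microRNAs. Capitals mark the seed, bases 2 to 8, and no seed is shared between genes.
mmu-miR-494-5p: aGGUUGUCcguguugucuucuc
mmu-miR-494-3p: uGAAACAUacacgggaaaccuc
mmu-miR-300-5p: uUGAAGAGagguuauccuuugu
mmu-miR-300-3p: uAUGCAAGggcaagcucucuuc
mmu-miR-487b-5p: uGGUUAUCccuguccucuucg

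The libraries that stood apart were the control group of this comparison. The genes called lower with FLX, described below, summed to 1537 to 2247 TPM in the *Brd1*+/- vehicle libraries (median 1800.3) and to 384 to 694 TPM in the *Brd1*+/- FLX libraries (median 492). These genes were chosen on those 16 libraries, so that gap is a description. In libraries that the choice did not use, the sums were 393.5 to 731 TPM in WT vehicle, 345 to 834 TPM in WT FLX, 386 to 709 TPM in *Brd1*+/- IMN and 621 to 893 TPM in WT IMN mice. FLX libraries lay in the range of the 4 other groups, and the *Brd1*+/- vehicle libraries lay above all 40 others. No result can be given without these vehicle libraries, because they are the whole control group. In the labels the vehicle mice and the FLX mice carry sample codes from separate ranges, so anything that follows the codes and the treatment cannot be told apart. Within the groups, FLX replicate 8 and vehicle replicate 3 were high in choroid plexus and motile cilia genes, and FLX replicate 2 and vehicle replicate 1 in striatal genes, which is taken up with the markers. No libraries held identical values, and replicates are the separate samples of the labels.

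*Brd1* itself had 18.01 to 27.2 TPM in FLX mice (median 24.4) and 21.8 to 30.6 TPM in vehicle mice (median 26.2). The groups overlapped, and the difference of -0.15 on the log2(TPM + 0.1) scale used throughout did not pass an exact permutation test (two-sided *p* = 0.16). WT vehicle mice had 26.5 to 41.0 TPM. Fewer genes were listed above 0 in FLX libraries, 24455 to 25852 (median 25287.5) against 25387 to 27252 (median 25874) with vehicle, a difference in means of -1098 genes (two-sided exact permutation *p* = 0.00357, where the smallest possible is 0.000155). The mean was 25173 with FLX and 26271 with vehicle. It was 25082.5 in WT vehicle, 24666.5 in WT FLX, 24858 in *Brd1*+/- IMN and 24893 in WT IMN mice, so the vehicle group of this comparison was the highest. Read depth is unknown, and its part in these counts was not tested.

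FLX libraries differed from vehicle libraries mostly in noncoding genes, nearly all lower with the drug. A gene was called when its limma *p*, adjusted by Benjamini-Hochberg over all 24336 genes tested, was under 0.05, which held for 178 genes (0.731%), 175 of them lower (0.719%) and 3 higher (0.0123%) with FLX. Without adjustment 1689 genes (6.94%) had a *p* under 0.05. Genes that code for no protein made up 97.2% of the calls (173 genes) and 37.1% of the genes tested. The 175 lower genes had a median log2 difference of -1.82 (all genes tested, -0.04) and a median vehicle mean of 0.563 TPM, and 44 had a vehicle mean of at least 1 TPM. The FLX and vehicle values did not overlap in 108 of the 178, and in 123 (0.505%) of all genes tested. Of the tested genes 34 reached 0.1 TPM in all 8 vehicle libraries and in no FLX library, and 33 of these are among the 178. They entered the test through the vehicle group alone and support nothing. The count of calls was 24 when a TPM of at least 1 was required in 8 samples and 88 without vehicle replicate 3. Without that library it was 154 when the filter was set to 7 samples, a setting chosen after seeing the data. In bulk tissue fewer cells of a type and less RNA per cell cannot be told apart.

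The calls fell unevenly over the annotation classes. Intronic noncoding genes held the largest share, 87 of 815 tested (10.7%), all lower, with a class median of -0.47. With a TPM of at least 1 required in 8 samples, 1 of 24 calls was intronic and 18 were small noncoding. With quantile normalization 30 of 89 were intronic. The 87 had a median vehicle mean of 0.459 TPM, and the filter of 0.1 TPM can be met through 1 group alone. The intronic share and class median are therefore a description. Small noncoding genes gave 25 lower and 3 higher of 1133 (2.47%, median -0.12), and other noncoding genes gave 45 lower of 3066 (1.47%, median -0.12). Among pseudogenes 13 of 3967 (0.328%) were lower, with log2 differences of -2.62 to -1.66 and a class median of -0.01. Protein-coding genes gave 3 calls of 570 with a single exon (median -0.03) and 2 of 14733 with several exons (0.0136%, median -0.04). By biotype, TEC genes, which await experimental evidence, gave 83 calls of 1286 and 12.6% of genes annotated as sense intronic were called (16 genes). The 301 snoRNA genes tested gave 0 calls, and so did the snRNA genes, most of them spliceosomal (limma). With 0.731% of all genes called, a count of 0 in sets of this size says little. An unadjusted *p* under 0.05 (limma) was found for 23 snoRNAs (7.64%) and 17 snRNAs (13.7%), beside 6.94% of all genes. In WT mice the class medians with FLX were -0.08 for intronic, 0.02 for small, 0.00 for other noncoding and 0.05 for multi-exon coding genes.

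**Figure D1:**
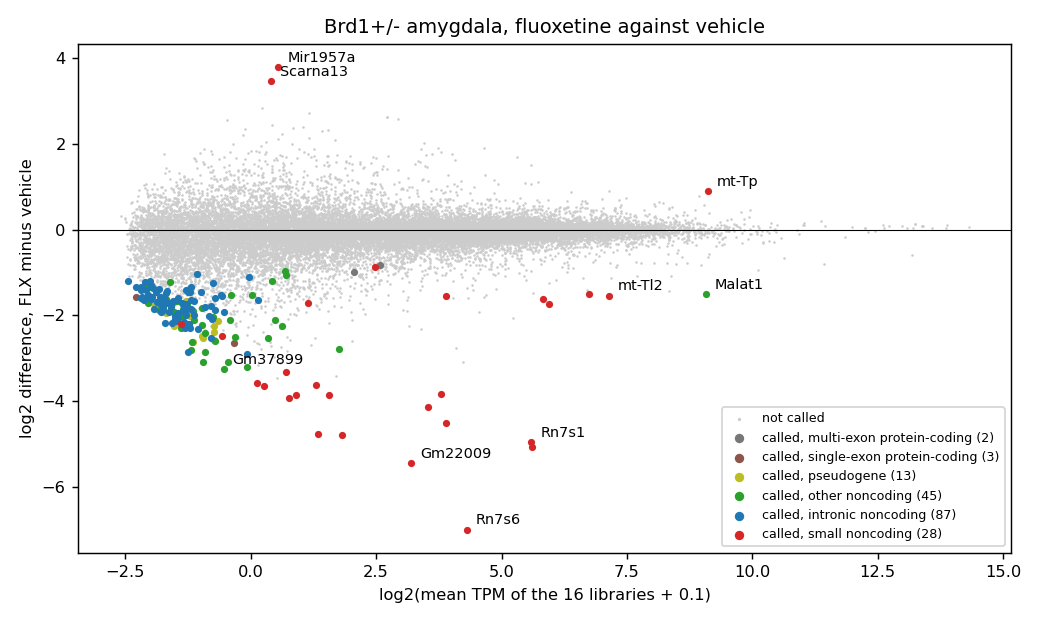
Log2 difference between FLX and vehicle in Brd1+/- mice (vertical axis) against the mean level of the 16 libraries (horizontal axis, log2 of TPM + 0.1), 1 point per gene tested. Coloured points are the 178 called genes by class. 175 lie below 0, most of them at low levels on the left, and the 3 above 0 are *Mir1957a*, *Scarna13* and *mt-Tp*.

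**Figure D2:**
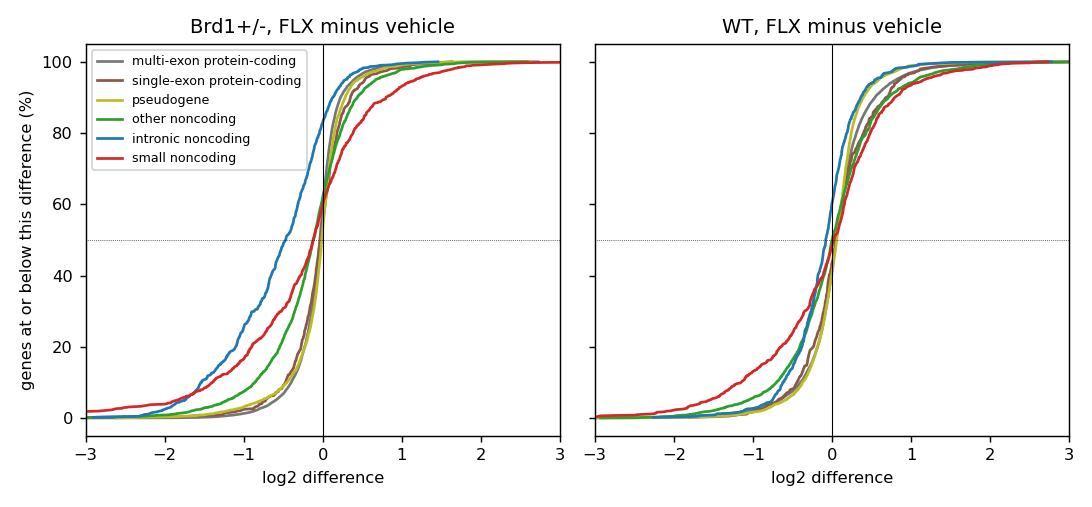
Cumulative percentage of genes (vertical axis) at or below each log2 difference, FLX minus vehicle (horizontal axis), for 6 gene classes in Brd1+/- mice (left) and WT mice (right). In Brd1+/- mice the intronic noncoding curve lies to the left, with 82.9% of its genes below 0 and a median of -0.47, and in WT mice its median is -0.08.

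Whole-class totals moved less than the called genes. Intronic noncoding genes together made up 834 to 1326 TPM in FLX libraries and 1230 to 1645 TPM in vehicle libraries. The ranges overlapped, and the log2 difference was -0.33 (two-sided exact permutation *p* = 0.00124, adjusted over 6 classes 0.00746). Small noncoding genes differed by -0.13 (exact permutation, adjusted *p* = 0.0606) and other noncoding genes by -0.16 (exact permutation, adjusted *p* = 0.0693). Without mitochondrial genes, which make up most of the small noncoding total, the small noncoding difference was -0.26 (exact permutation *p* = 0.00466, adjusted over 2 such parts 0.00932). Without *Malat1* the other noncoding difference was -0.12 (exact permutation *p* = 0.123). The parts without mitochondrial genes and without *Malat1* were not among the planned tests, and their values are given as a description. Multi-exon coding genes summed to 637954 to 731606 TPM with FLX and 658660 to 723491 TPM with vehicle, and did not differ by this test (log2 difference -0.0046, exact permutation *p* = 0.882).

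The RNAs of the signal recognition particle were among the genes called lower. Of 12 tested genes that align with *Rn7s2*, here called 7SL-like, 10 were called lower, beside 0.719% of all genes. These genes are not separate features. *Rn7s1* and *Rn7s2* have the same annotated transcript, and several short annotations overlap *Rn7s1*, *Rn7s2* or *Rn7s6*. The same reads may therefore count more than once in the 10 calls and in the sums, which are a description. Summed over the 12, vehicle libraries had 236 to 438.4 TPM (median 324) and FLX libraries 9.54 to 41.1 TPM (median 13.8). The highest FLX library, replicate 1, stayed far below the lowest vehicle library. The same sum was 6.31 to 25.4 TPM in WT vehicle, 6.38 to 35.4 TPM in WT FLX, 9.92 to 61.2 TPM in *Brd1*+/- IMN and 6.16 to 53.2 TPM in WT IMN mice.

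*Rn7s1* had 1.29 to 8.29 TPM with FLX (median 2.83) and 68.1 to 122.1 TPM with vehicle (median 89.9). The groups were far apart, with a 28.9-fold lower mean and a log2 difference of -4.96 ± 0.26 (SE, adjusted *p* = 2.91e-08). *Rn7s2*, whose annotated transcript is the same, went from 64.1 to 123.6 TPM with vehicle (median 92.2) to 0.955 to 8.33 TPM with FLX (median 2.69), a difference of -5.08 ± 0.29 (SE, adjusted *p* = 5.82e-08). A read from either copy fits both, so their split is uncertain and their sum is the safer value. In WT mice the FLX difference was 0.33 for *Rn7s1* and 0.45 for *Rn7s2*, neither called, and the interaction with genotype was called for both (-5.29, adjusted *p* = 5.1e-08, and -5.53, adjusted *p* = 6.41e-08).

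*Rn7s6* was listed at 0 in 7 FLX libraries and at 3.85 TPM in FLX replicate 1. With vehicle it was listed at 0 in replicate 6 and at 31.5 to 60.8 TPM in the other 7 (adjusted *p* = 0.0055). These 7 and FLX replicate 1 just met the filter of 0.1 TPM in 8 samples. The gene was tested only because of its vehicle signal, so its *p* is a description. The log2 difference of -7.01 ± 1.19 (SE) depends on the pseudocount, since most FLX values are 0. *Gm47304*, an annotated microRNA gene, covers bases inside *Rn7s6*. It was not called, and 1 vehicle library, again replicate 6, held 76.1 TPM where the group's median was 2.45 TPM. The library without *Rn7s6* signal was therefore the one with high *Gm47304* signal, and how reads were divided between the overlapping genes is uncertain.

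The remaining 7SL-like genes are partial or decayed copies, or short microRNA annotations that lie in *Rn7s1*, *Rn7s2* and *Rn7s6*. *Gm26461*, in an intron of *Zfp949*, had 0.299 to 2.76 TPM with FLX and 14.5 to 28.3 TPM with vehicle (log2 difference -4.15 ± 0.33, SE, adjusted *p* = 2.51e-06). *Gm47295*, at the end of *Rn7s1*, had 0.502 to 4.75 TPM with FLX and 10.8 to 50.2 TPM with vehicle (-4.52 ± 0.41, SE, adjusted *p* = 1.12e-05). *Gm24105*, another 7SL-like copy, had 0 to 0.728 TPM with FLX and 2.96 to 8.37 TPM with vehicle (-3.86 ± 0.37, SE, adjusted *p* = 2.26e-05). None of these 3 genes overlapped between groups. *Gm47299*, *Gm24514*, *Gm23153* and *Gm47287* were called lower too, with log2 differences of -3.85, -3.59, -2.21 and -1.71, and *Gm47305* was at -1.44 without a call (adjusted *p* = 0.204). Proteins of the particle (*Srp9*, *Srp14*, *Srp19*, 3 *Srp54* genes, *Srp68* and *Srp72*) gave no call, so that only the 3 RNA genes among the 11 genes of the 7SL and SRP list were called (list median -0.05, all genes -0.04).

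In a list of 13 other structural RNAs 3 were tested and 0 called (limma, 0 at unadjusted *p* under 0.05, list median -0.39). *Rn7sk*, which holds back the elongation factor P-TEFb, had 3.55 to 9.12 TPM with FLX and 6.16 to 11.7 TPM with vehicle (log2 difference -0.39, adjusted *p* = 0.786). *Rpph1*, the RNA of ribonuclease P, had 0 to 1.02 TPM with FLX and 0 to 3.18 TPM with vehicle (-1.05, adjusted *p* = 0.883). *Rnu73b*, a snoRNA gene, had 0 to 7.17 TPM with FLX and 0 to 2.96 TPM with vehicle (1.99, adjusted *p* = 0.731). All 3 overlapped between groups.

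The scaRNA genes moved both ways. *Gm22009* had 0 to 1.64 TPM with FLX (median 0.438, 0 in 3 libraries) and 11.3 to 25.4 TPM with vehicle (median 17.6). The groups did not overlap, and the difference was -5.46 ± 0.58 (SE, adjusted *p* = 5.53e-05). *Scarna2*, chosen after its values were seen, was listed at 0 in 6 FLX libraries and reached 0.757 TPM, against 0.407 to 1.68 TPM with vehicle (-2.47 ± 0.54, SE, adjusted *p* = 0.0428), a call that 18 alternative settings lost. *Scarna13* went the other way, with 1.13 to 3.78 TPM in FLX libraries (median 2.00) and 0 in 6 vehicle libraries, the highest at 1.28 TPM (3.47 ± 0.60, SE, adjusted *p* = 0.0067). Its WT levels spanned 0 to 3.56 TPM with vehicle and 0 to 3.80 TPM with FLX. Of 21 scaRNA genes tested 3 were called, beside 0.731% of all genes.

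*Mir1957a* was listed at 0 in 7 vehicle libraries and at 0.54 TPM in the eighth, and reached 6.83 TPM with FLX (median 2.55, 0 in 1 library). The groups overlapped at 0, and the difference was 3.79 ± 0.70 (SE, adjusted *p* = 0.0107). With 1 vehicle library *Mir1957a* just met the filter of 0.1 TPM in 8 samples. This gene was tested only because of its FLX signal, so its *p* is a description. In WT mice it ranged from 0 to 2.37 TPM with vehicle and 0 to 3.02 TPM with FLX, and its interaction with genotype was not called (adjusted *p* = 0.245). The microRNA annotations *Gm24187*, *Gm24270* and *Gm25911*, 56 or 57 bases long, align with each other over nearly their whole length, so their reads may be shared. They were chosen after their values were seen. *Gm24270*, inside an intron of *Peak1*, had 30.5 to 108 TPM with FLX and 79.8 to 358 TPM with vehicle (-1.50 ± 0.32, SE, adjusted *p* = 0.0353). *Gm24187* and *Gm25911* differed by -1.62 and -1.55 (adjusted *p* = 0.0444 and 0.0353). In each of the 3 the groups overlapped, and each lost its call in 15 or more alternative settings.

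Beside 7SL, the Dlk1-Dio3 region held a run of lower genes. On chromosome 12, from *Dlk1* to *Dio3*, 65 genes were tested and 9 called lower, beside 0.719% of all genes. Of the 9, 8 lie in 1 stretch of 60.1 kb between the host transcripts *Rian* and *Mirg* (chr12:109668869-109728943), which holds 12 tested genes. This stretch was chosen after the values were seen, so it has no test of its own. All 12 differences there were negative, from -2.23 to -4.81 with a median of -3.40. The 10 microRNA genes among them were above 0 in at most 3 FLX libraries, and *Gm37899* and *B830012L14Rik* reached 0.1 TPM in none. These genes passed the filter of 0.1 TPM in 8 samples largely through the vehicle group. The negative signs, the counts of calls in the region and the sums below are therefore a description. Summed over the 12 genes, vehicle libraries had 16.4 to 72.2 TPM (median 32.4) and FLX libraries 0.581 to 6.91 TPM (median 2.69), with no overlap. The other 4 groups reached at most 9.54 TPM. The 28 microRNA genes tested elsewhere in the region gave 0 calls, with a median of -0.53 (range -1.87 to 0.91) and 24 below 0.

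Long transcripts on both sides of the stretch changed little. *Meg3*, *Rian* and *Mirg*, the maternally expressed host RNAs, differed by -0.09, 0.10 and -0.01. *Gm37899*, a TEC gene that opens the stretch, had 0 to 0.0467 TPM with FLX (median 0.0216) and 0.648 to 2.18 TPM with vehicle (median 1.12). *B830012L14Rik*, a long noncoding RNA in the middle of it, had 0 to 0.0943 TPM with FLX and 0.364 to 2.09 TPM with vehicle. Both genes met the filter of 0.1 TPM through the vehicle group alone, so that they had to differ, and their values are given as a description.

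In the stretch 10 of the 12 genes are microRNA annotations, and the ones named here were chosen after their values were seen. *Mir494* was listed at 0 in 7 FLX libraries and at 0.87 TPM in 1, and reached 6.31 TPM with vehicle (median 3.44, 0 in 1 library, log2 difference -3.93, adjusted *p* = 0.0144). It just met the filter of 0.1 TPM in 8 samples, with 7 vehicle libraries and 1 FLX library, so its *p* is a description. *Mir300* had 0 in 6 FLX libraries and 0.459 to 6.71 TPM with vehicle (-3.86, adjusted *p* = 0.0067). *Mir487b* had 0 in 5 FLX libraries and 1.09 to 8.58 TPM with vehicle (-3.62, adjusted *p* = 0.0308), a call that 17 alternative settings lost. Single FLX libraries with signal therefore overlapped the lower vehicle libraries in these genes. *Gm27379*, *Gm44322* and *Gm25252* were called too (-4.78, -4.81 and -3.33), and the last 2 lie antisense to *Mir539* and *Mir376a*. Without a stated strand their reads cannot be told from those of the opposite gene. The call of *Gm25252* was lost in 15 alternative settings. *Mir1197*, *Mir679*, *Mir667* and *Mir376c* had differences of -2.23, -3.47, -2.65 and -3.11 that were not called. The ninth call of the region was *Gm27596*, at the start of *Meg3*, with 0 in 6 FLX libraries and 1.27 to 3.60 TPM with vehicle (-3.65 ± 0.48, SE, adjusted *p* = 0.000572).

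**Figure D3:**
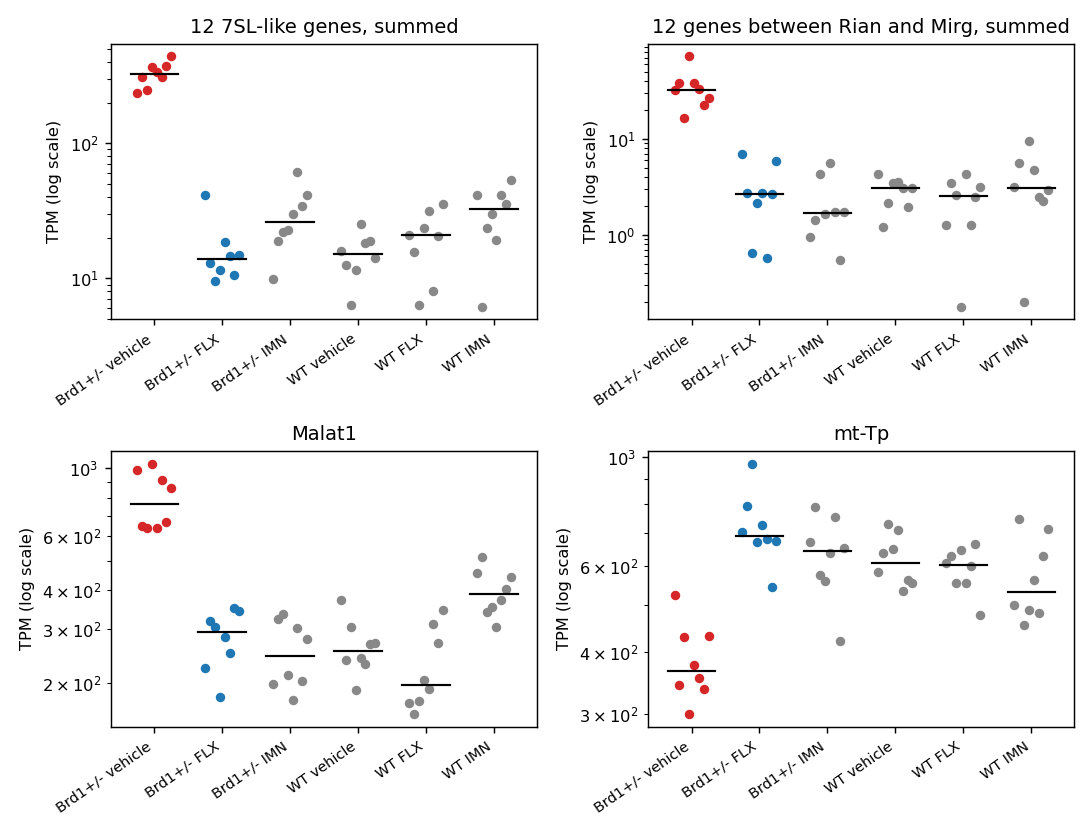
TPM on a log scale in each of the 48 libraries by group, with 1 point per library and a line at the group median. In the 7SL-like sum, the sum of 12 genes between Rian and Mirg, and Malat1, the 8 Brd1+/- vehicle libraries (red) lie above the FLX libraries (blue) and the 4 other groups (grey), and for mt-Tp the FLX libraries (544 to 968 TPM) lie above all Brd1+/- vehicle libraries (299.7 to 524 TPM).

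Mitochondrial tRNAs and mRNAs did not move together. *mt-Tp*, the proline tRNA, had 544 to 968 TPM with FLX (median 691) and 299.7 to 524 TPM with vehicle (median 366). Every FLX library lay above every vehicle library, and the difference was 0.90 ± 0.12 (SE, adjusted *p* = 0.000819). WT mice had 532 to 730.1 TPM with vehicle and 477 to 663 TPM with FLX, and the interaction was called (0.96, adjusted *p* = 0.000545). *mt-Th* fell from 70.6 to 107 TPM with vehicle (median 95.4) to 9.75 to 61.0 TPM with FLX (median 28.6), also without overlap (-1.73 ± 0.27, SE, adjusted *p* = 0.0031).

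*mt-Tl2* had 141 to 223 TPM with vehicle (median 212) and 35.6 to 181 TPM with FLX (median 61.3), where replicate 8 alone reached the vehicle range (-1.54 ± 0.24, SE, adjusted *p* = 0.00315). *mt-Ts2*, which lies between these 2 genes and was chosen after its values were seen, had 5.79 to 8.28 TPM with vehicle and 2.38 to 5.96 TPM with FLX (-0.88 ± 0.16, SE, adjusted *p* = 0.0101). The 3 neighbours had interactions with genotype of -1.43, -1.38 and -0.95 for *mt-Th*, *mt-Tl2* and *mt-Ts2* that were not called (adjusted *p* = 0.0979, 0.0541 and 0.081). High levels of *mt-Th* and *mt-Tl2* were not particular to *Brd1*+/- vehicle libraries, since WT IMN libraries had 63.9 to 93.4 TPM and 162 to 224 TPM.

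Over all 22 mitochondrial tRNA genes 1 was called higher and 3 lower, beside 0.731% of all genes called in either direction, 20 had a negative difference and the median was -0.20. Tested genes on the plus strand (14) and minus strand (8) had nearly the same median, -0.20 each. The 15 mitochondrial mRNAs and rRNAs gave 0 calls (limma, 0 at unadjusted *p* under 0.05), with 12 positive differences and a median of 0.07. *mt-Nd5*, which follows *mt-Tl2*, had 5538 to 7621 TPM with FLX and 4938 to 7246 TPM with vehicle (0.10, adjusted *p* = 0.959). *mt-Co3* differed by 0.14 and *mt-Atp6* by -0.59, both with overlapping groups (adjusted *p* = 0.95 and 0.73).

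**Figure D4:**
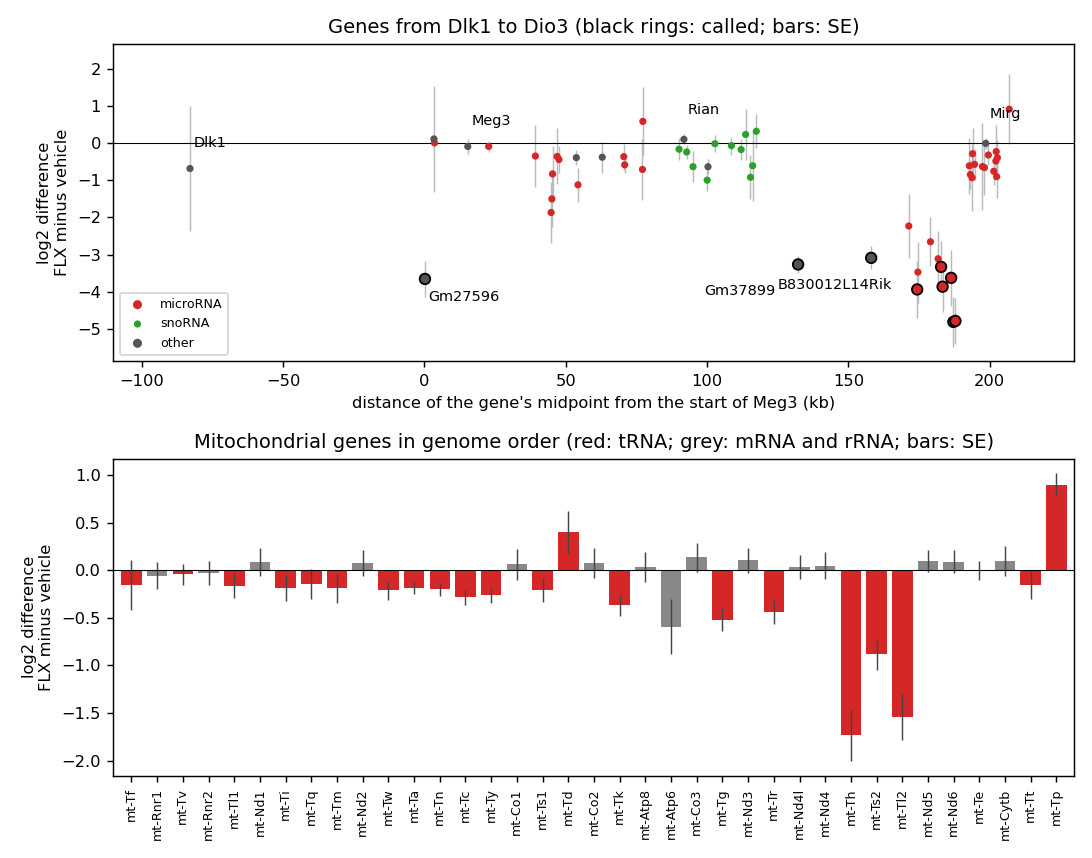
Log2 difference, FLX minus vehicle in Brd1+/- mice (vertical axes), with SE as bars. Above, 59 of the 65 tested genes from Dlk1 to Dio3 against distance from the start of Meg3 in kb, where all 12 genes between Rian and Mirg lie between -2.23 and -4.81. Below, the 37 mitochondrial genes in genome order, where mt-Th, mt-Ts2 and mt-Tl2 (-1.73, -0.88 and -1.54) are neighbours and mt-Tp (0.90) stands last.

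Among long noncoding RNAs *Malat1* had the highest level of those called. It had 180.2 to 349 TPM with FLX (median 293) and 637 to 1031 TPM with vehicle (median 765). The groups did not overlap, and the difference was -1.51 ± 0.15 (SE, adjusted *p* = 3.7e-05). With FLX in WT mice *Malat1* differed by -0.24 (adjusted *p* = 0.51), and the interaction was called (-1.26, adjusted *p* = 0.0034). It was the only call among 14 listed nuclear-retained RNAs, whose median was -0.09, with 12 below 0. *Peg13*, an imprinted RNA within *Trappc9*, had 81.7 to 128 TPM with FLX and 112.5 to 179.8 TPM with vehicle (-0.33, adjusted *p* = 0.376), and its interaction was called (-0.73, adjusted *p* = 0.00901). *Gm26917* had 4.08 to 9.84 TPM with FLX and 4.77 to 24.9 TPM with vehicle (-0.49, adjusted *p* = 0.804).

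The other long noncoding genes named by size were little studied. *9530059O14Rik* had 0.24 to 1.39 TPM with FLX and 2.83 to 11.3 TPM with vehicle, with no overlap (-2.79 ± 0.38, SE, adjusted *p* = 0.000856). *Gm31224*, antisense to the kinesin gene *Kifc3*, was listed at 0 in 7 FLX libraries and at 0.707 TPM in 1, and reached 3.12 TPM with vehicle (median 1.51, 0 in 1 library, adjusted *p* = 0.0215). With 1 FLX library it just met the filter of 0.1 TPM in 8 samples. This gene was tested only because of its vehicle signal, so its *p* is a description. Of the 178 called genes 50 overlap an exon of another gene or lie antisense to one, and their reads cannot be assigned with certainty.

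The largest group of calls, 87 intronic noncoding genes, was set against the genes that contain them. Their log2 differences ran from -2.91 to -1.04 with a median of -1.69, at vehicle means of 0.155 to 1.55 TPM. The 69 distinct host genes were all tested, and 0 were called (limma, 2 at unadjusted *p* under 0.05). Of all multi-exon coding genes 0.0136% were called and 4.45% had an unadjusted *p* under 0.05 (limma). A count of 0 among 69 hosts therefore says little. Host differences ran from -0.55 to 0.26 with a median of -0.05, 25 above and 44 below 0. The 87 genes are those called, and the hosts were not chosen by their values, so the 2 sets of differences are given as a description. Of all 815 intronic noncoding genes tested 676 (82.9%) had a negative difference. The filter, 0.1 TPM in 8 samples, can be met through 1 group alone, so nothing is read from this share.

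*Gm19409*, in an intron of the microtubule-binding gene *Mapre3*, had 0 to 0.38 TPM with FLX (median 0.12) and 0.894 to 2.18 TPM with vehicle (median 1.59). The groups did not overlap (-2.91 ± 0.34, SE, adjusted *p* = 0.000196). *Gm43359*, in an intron of the calcium pump gene *Atp2a2*, had 0.145 to 0.887 TPM with FLX and 1.08 to 2.09 TPM with vehicle (-1.65 ± 0.28, SE, adjusted *p* = 0.00539). *Gm48027*, in an intron of the chromatin gene *Arid4b*, had 0.337 to 1.07 TPM with FLX and 0.887 to 1.5 TPM with vehicle, overlapping in FLX replicate 1 (-1.11 ± 0.22, SE, adjusted *p* = 0.0211). *Gm42908*, in an intron of *Mlxip* and chosen after its values were seen, was listed at 0 in all FLX libraries and at 0.427 to 1.004 TPM with vehicle, and so met the filter through the vehicle group alone. These hosts were picked after the values were seen. Some held several called genes, 5 each in the synaptic scaffold gene *Dlg2* and in *Frmd4a*, and 3 each in *Adgrb3* and *Mlxip*. *Kat6a*, an acetyltransferase that partners BRD1-family scaffolds, held 1 (*Gm45555*), and *Crebbp*, another acetyltransferase, held *Gm37186*.

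Sequence features of the called intronic genes are set beside those of all tested, with no test. Their median exonic length was 2474 bases, against 1896 over all tested, and the median GC content was 41.7% in both. A run of 10 A was found in 20.7% of the called and 21.3% of the tested genes, and a run of 10 T in 35.6% and 27.2%. In WT mice the 87 genes had a median FLX difference of -0.08 where measured and 55 of them had a called interaction with genotype, which contains the difference that chose them.

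**Figure D5:**
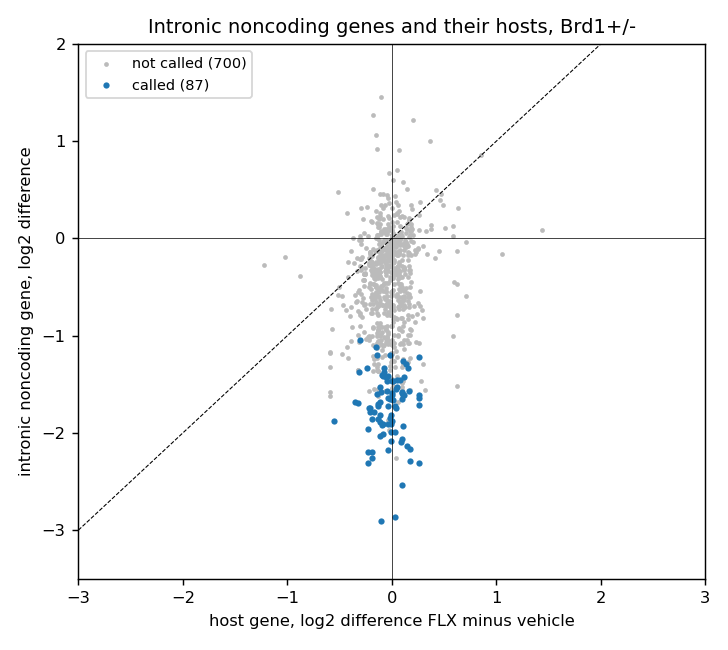
Log2 difference, FLX minus vehicle in Brd1+/- mice, of 787 intronic noncoding genes (vertical axis) against that of the protein-coding gene that contains each (horizontal axis). The 87 called genes (blue) lie between -2.91 and -1.04 while their hosts lie between -0.55 and 0.26, and the dashed line marks equal differences.

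Protein-coding genes gave 5 calls, all lower with FLX. *Mcc*, a regulator of the cell cycle and of Wnt signalling, had 2.87 to 5.42 TPM with FLX (median 4.30) and 4.88 to 10.9 TPM with vehicle (median 7.35). The groups overlapped slightly, and the difference was -0.83 ± 0.17 (SE, adjusted *p* = 0.0278). *Proca1*, a cyclin-binding protein, had 1.97 to 4.43 TPM with FLX and 3.33 to 8.79 TPM with vehicle (-0.999 ± 0.22, SE, adjusted *p* = 0.0485). Both lost the call under many alternatives, in 13 settings for *Mcc* and 22 for *Proca1*, and when multi-exon coding genes were tested alone 0 were called (621 at unadjusted *p* under 0.05).

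The 3 single-exon coding genes called were low and sit in or across other genes. *Gm10277*, which overlaps *Myo18a*, had 0.0617 to 0.175 TPM with FLX and 0.722 to 1.98 TPM with vehicle (-2.64 ± 0.23, SE, adjusted *p* = 7.24e-06). *B130006D01Rik*, in an intron of *Zfp652*, had 0 to 0.0643 TPM with FLX and 0.142 to 0.54 TPM with vehicle. *Psapl1*, a saposin-like gene that overlaps *Sorcs2*, was listed at 0 in all FLX libraries and at 0.119 to 0.394 TPM with vehicle. *B130006D01Rik* and *Psapl1* met the filter of 0.1 TPM through the vehicle group alone, so that they had to differ, and only the groups of *Gm10277* are compared here, which did not overlap.

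The multi-exon coding genes nearest to a call, given as values, had modest differences. Above 0 stood *Arfip2* (0.45 ± 0.11, SE), *Riox2*, a ribosome-linked oxygenase (0.44 ± 0.10, SE), *Nr2c2ap* (0.41 ± 0.10, SE), *Ifrd1*, a transcriptional co-regulator (0.49 ± 0.13, SE), and *Hacd1*, an enzyme of fatty acid elongation (0.71 ± 0.19, SE), with adjusted *p* from 0.072 to 0.137. Below 0, after *Mcc* and *Proca1*, stood *Zmat3*, a p53 target (-0.47 ± 0.11, SE), *Atf7*, a stress-responsive transcription factor (-0.62 ± 0.15, SE), and *Slc4a8*, a neuronal bicarbonate transporter (-0.69 ± 0.17, SE), with adjusted *p* from 0.0614 to 0.0903. *Riox2*, with 9.43 to 14.1 TPM with FLX and 6.73 to 9.72 TPM with vehicle, also had a called interaction with genotype (0.74, adjusted *p* = 0.00247).

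FLX acts on the serotonin pathway. Of 22 listed genes of serotonin synthesis, transport and reception 18 were tested and 0 called (limma, 1 at unadjusted *p* under 0.05), with a median of -0.22. With 0.731% of all genes called, a count of 0 in a list of this size says little. *Htr2b*, a serotonin receptor, had 0 to 0.311 TPM with FLX and 0 to 0.958 TPM with vehicle (-1.29, adjusted *p* = 0.545). *Htr7* differed by -0.61 and *Htr2a* by -0.63, with overlapping groups (adjusted *p* = 0.838 and 0.887). Catecholamine genes gave 0 calls of 16 tested (limma, 1 at unadjusted *p* under 0.05, median -0.19). *Th*, the rate-limiting enzyme of catecholamine synthesis, ranged from 0 to 7.37 TPM with FLX and from 0.631 to 101 TPM with vehicle (-2.33, adjusted *p* = 0.608).

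Immediate-early genes, which neurons switch on within minutes of activity, stood slightly above vehicle without a call. Of 22 tested 0 were called (limma, 2 higher and 1 lower at unadjusted *p* under 0.05), 18 were positive and the median was 0.29. In WT mice their median with FLX was -0.95. The interaction, which tests the difference between the genotypes, was called for 4 of the 22, against 1.71% of all genes, with a list median of 1.09. *Egr2* had 2.58 to 12.4 TPM with FLX and 1.19 to 8.45 TPM with vehicle in *Brd1*+/- mice (0.91, adjusted *p* = 0.692), against 0.705 to 6.75 and 3.15 to 16.2 TPM in WT mice (-1.58, adjusted *p* = 0.121), an interaction of 2.49 (adjusted *p* = 0.0426). *Npas4*, *Egr4* and *Nr4a1*, chosen after their values were seen, had interactions of 1.62, 2.28 and 1.5 (adjusted *p* = 0.0263, 0.0123 and 0.0459) and *Brd1*+/- differences of 0.67, 0.53 and 0.47. For *Npas4* the WT difference was itself called (-0.95, adjusted *p* = 0.0429), since all WT vehicle libraries (9.88 to 31.2 TPM) lay above all WT FLX libraries (5.84 to 9.71 TPM).

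Plasticity genes were mostly above vehicle too, without a call. The 18 neurotrophin and CREB genes gave 0 calls (limma, 1 at unadjusted *p* under 0.05), with a median of 0.21 and 14 positive. The interaction was called for 2 of the 18, beside 1.71% of all genes. *Inhba*, a subunit of activin, had 2.97 to 13.7 TPM with FLX and 0.794 to 10.3 TPM with vehicle (1.41, adjusted *p* = 0.311) and an interaction of 2.60 (adjusted *p* = 0.0163). *Gadd45b*, a DNA repair and demethylation factor chosen after its values were seen, differed by 0.19 with an interaction of 1.3 (adjusted *p* = 0.046). Glucocorticoid and CRH genes (12 tested, median 0.13), amygdala neuropeptides (16 tested, median 0.30), Gq signalling (19, median 0.05), the unfolded protein response (19, median 0.06), the BRD1 acetyltransferase complexes (12, median -0.08) and cholesterol synthesis (16, median -0.10) gave 0 calls (limma, with 2, 0, 1, 0, 0 and 0 at unadjusted *p* under 0.05). *Fkbp5*, a glucocorticoid target, had 40.1 to 72.7 TPM with FLX and 24.8 to 65.5 TPM with vehicle (0.46, adjusted *p* = 0.621). *Crhr1*, the main receptor of corticotropin-releasing hormone, differed by -0.51 (adjusted *p* = 0.481).

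Markers of cell types were read from the same libraries to describe the punches. Neuron markers summed to 3045 to 5517 TPM with FLX and 3848 to 4836 TPM with vehicle, and *Prkcd*, a gene of central amygdala neurons, was detected in every library (14.4 to 147 TPM with FLX, 13.4 to 121.1 TPM with vehicle). None of the summed levels of 11 marker lists passed an exact permutation test, with adjusted *p* from 0.471 to 0.925. The sum of 10 oligodendrocyte markers ran from 964 to 18259 TPM with FLX and from 2496 to 17400 TPM with vehicle (log2 difference -0.79). All 10 of these genes had a negative difference, and their median was -0.82. Among WT mice the median was 1.18, and 0 interactions were called (limma, list median -2.07). In WT mice summed markers were higher with FLX by 1.25 on the log2 scale for oligodendrocytes, 0.55 for their precursors, 0.26 for astrocytes and 0.24 for endothelium (exact permutation, two-sided, unadjusted *p* = 0.0289, 0.0222, 0.0059 and 0.0196, and adjusted over 11 lists 0.0795, 0.0795, 0.065 and 0.0795). The part of these markers in the noncoding differences, the WT differences and the interactions was not tested.

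The other marker lists gave 0 calls in *Brd1*+/- mice, with medians of -0.29 for oligodendrocyte precursors, -0.28 for astrocytes, -0.15 for microglia, -0.24 for endothelium, -0.61 for red blood cells, -0.69 for hypothalamic and subpallial patterning genes and -0.01 for neurons (limma, with 1 microglial and 1 endothelial gene at unadjusted *p* under 0.05). Choroid plexus markers summed to 29448 TPM in FLX replicate 8 and 10904 TPM in vehicle replicate 3, where the group medians were 75.7 and 124.6 TPM. Motile cilia genes, whose list median was 0.85, were high in the same 2 libraries (387 and 262 TPM, against medians of 81.7 and 45.5 TPM). Striatal projection neuron markers summed to 8224 TPM in FLX replicate 2 and 7348 TPM in vehicle replicate 1, against medians of 619 and 407.8 TPM (list median -0.07). Without FLX replicate 8 there were 150 calls and without vehicle replicate 3 there were 88, while leaving out FLX replicate 2 gave 144 and vehicle replicate 1 gave 115. Low counts were not particular to these vehicle libraries, since leaving out vehicle replicates 2, 4, 5, 6 and 8 gave 109, 95, 99, 104 and 98. In these fits the filter stayed at 8 samples. At 7 samples, a setting chosen after seeing the data, there were 193 calls without FLX replicate 8 and 154 without vehicle replicate 3. At that setting there were 186 without FLX replicate 2 and 182 without vehicle replicate 1. The GABA and glutamate list gave 0 calls of 9 (limma, 1 at unadjusted *p* under 0.05, median -0.27), and *Slc6a11*, a GABA transporter of astrocytes, had an interaction of -2.38 (adjusted *p* = 0.0123) with -0.83 in *Brd1*+/- mice.

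Whether FLX acted the same way in WT mice was tested on other libraries and as an interaction. WT FLX against WT vehicle gave 79 calls of 23557 genes (0.335%). At unadjusted *p* under 0.05 (limma) there were 3949 genes in WT mice, more than the 1689 of 24336 in *Brd1*+/- mice. Of the 175 genes lower in *Brd1*+/- mice only 66 passed the filter in the WT comparison. Of these 0 were called (limma) and their median was -0.02, beside 0.05 for all genes. The interaction was called for 455 of 26657 genes (1.71%) and for 107 of the 175. All 107 had a more negative FLX difference in *Brd1*+/- than in WT mice. The interaction contains the difference that chose the 175 genes, so these 107 are no independent test of it. Direct comparison of FLX with IMN in *Brd1*+/- mice gave 0 calls of 23724 genes (limma, 709 at unadjusted *p* under 0.05), and the 57 of the 175 genes measured there had a median of -0.20.

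The comparisons of FLX with vehicle, of IMN with vehicle and of the genotypes under vehicle share the *Brd1*+/- vehicle libraries, so values for the same genes are set side by side and not counted as separate evidence. *Rn7s1* differed by -4.96 with FLX, by -4.02 with IMN and by 5.02 between *Brd1*+/- and WT vehicle mice. *Malat1* differed by -1.51, -1.66 and 1.59. *mt-Tp* differed by 0.90, 0.70 and -0.69, each of opposite sign to the genotype difference in vehicle mice. *Gm22009* differed by -5.46, -5.51 and 5.34. *Mcc* differed by -0.83, -0.82 and 0.85. *Proca1* differed by -0.999, -0.24 and 0.46.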

How the data were processed

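RNA-sequencing libraries from the right amygdala of 48 female mice were measured in 6 groups of 8. The authors trimmed reads with Trimmomatic after FastQC, aligned them to GRCm38 with HISAT2 2.1.0 and estimated transcripts with StringTie 1.3.4, per the submitters' processing notes, and the values deposited are TPM per gene. Library strand is not given in the sources used here, and TPM holds no read counts, so the depth per sample is unknown (column sums were 999524 to 999772).

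Groups and replicates were taken from the labels. Separate mice are implied by 1 code per sample. Values were tested as log2(TPM + 0.1) with limma 3.58.1 in R 4.3.3 (trended eBayes, 2 groups of the comparison, Benjamini-Hochberg adjustment), keeping genes at 0.1 TPM or more in at least 8 samples. Single values were compared by two-sided exact permutation tests (Python 3.11.15, scipy 1.17.1). The interaction was fitted on the 4 FLX and vehicle groups. Scripts were tested on simulated data.

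Of 52636 gene IDs, 52489 were found in GENCODE M21, whose biotypes gave the classes (147 were not). Small noncoding genes were snRNA, snoRNA, scaRNA, miRNA, misc_RNA, rRNA, ribozyme, mitochondrial tRNA and rRNA and similar biotypes. Intronic noncoding genes were other noncoding genes within an intron of a coding gene of the same strand. A gene was 7SL-like when its local alignment to *Rn7s2* scored at least 40 (Biopython 1.88). Sequences of the 7SL genes are not reported here.

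Named genes were *Brd1*, *Rn7s6* and *mt-Tp*, up to 4 called genes per class and direction with the largest difference (if the group with more signal averaged 1 TPM or above), every called coding gene, the 5 multi-exon coding genes per direction with the smallest *p*, the 3 smallest *p* in each of 27 gene lists, and every 7SL copy. Members and lists were chosen with earlier results of these data known. Alternatives were other pseudocounts, filters, scalings, priors, samples in the fit, a replicate block, sample-code ranges as a covariate and leaving out each library.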

Additional observations from a re-analysis of the deposited data

Results flagged for a closer look

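Of 302 groups of 8 libraries checked, 60 held a library whose gap to its neighbour was large for the range of the group, where chance alone gives about 1 in 20. No cause was tested.

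FLX replicate 1 was highest of its group in 10, among them 7SL-like genes that were low in the other FLX libraries. It had 3.85 TPM of *Rn7s6*, 8.29 TPM of *Rn7s1*, 8.33 TPM of *Rn7s2*, 4.75 TPM of *Gm47295* and 2.85 TPM of *Gm47287*. It also had 1.07 TPM of *Gm48027*, 23.2 TPM of *Brpf3*, 2.60 TPM of *Gm27379*, 61.3 TPM of *Gm24187* and 108 TPM of *Gm24270*.

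Markers of neighbouring tissue set several libraries apart. FLX replicate 8 had 123 TPM of *Otx2*, 165 TPM of *Kcne2* and 84.6 TPM of *Aqp1*, with a choroid plexus sum of 29448 TPM. Its cilia genes *Meig1*, *Rsph1* and *Ccdc153* had 21.4, 61.3 and 58.8 TPM and the cilia sum was 387 TPM. Vehicle replicate 3 had 42.9 TPM of *Otx2*, 57.1 TPM of *Kcne2*, 27.5 TPM of *Aqp1*, 39.4 TPM of *Rsph1* and 40.9 TPM of *Ccdc153*, with sums of 10904 TPM for choroid plexus and 262 TPM for cilia. FLX replicate 2 had 294 TPM of *Drd2*, 3834 TPM of *Ppp1r1b* and 735 TPM of *Rgs9*, with a striatal sum of 8224 TPM. Vehicle replicate 1 had 249.9 TPM of *Drd2*, 3655 TPM of *Ppp1r1b* and 685 TPM of *Rgs9*, with a striatal sum of 7348 TPM.

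Among FLX libraries, replicate 8 further had 181 TPM of *mt-Tl2*, 10.0 TPM of *Bmp4*, 5.19 TPM of *Alas2* and 1.40 TPM of *Mir300*. Replicate 2 had 1.64 TPM of *Mir679*. Replicate 4 had 4.43 TPM of *Proca1*, 0.707 TPM of *Gm31224* and 0.87 TPM of *Mir494*. Replicate 5 had 0.298 TPM of *Gm24514* and 6.00 TPM of *Gm47305*, and replicate 7 had 97.1 TPM of *Ifrd1*.

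Among vehicle libraries, replicate 2 had 43.5 TPM of *Jade1* and replicate 3 had 24.9 TPM of *Gm26917* and 49.6 TPM of *Gm25911*. Replicate 4 had 2.18 TPM of *Gm37899*, 11.7 TPM of *Rn7sk*, 7.61 TPM of *Mir376c* and 18.2 TPM of *Gm44322*. Replicate 5 had 0.54 TPM of *Mir1957a* and 121.1 TPM of *Prkcd*. Replicate 6 had 88.1 TPM of *Csf1r* and 76.1 TPM of *Gm47304*. Replicate 7 had 141 TPM of *mt-Tl2* and a patterning gene sum of 91.2 TPM, both low for the group, and 101 TPM of *Th*. Replicate 8 had 11.4 TPM of *Hacd1* and 3.60 TPM of *Gm27596*.

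For 40 of the 134 genes named by the rule the FLX difference differed between the genotypes by limma's interaction test. Over all genes the interaction was called for 455 of 26657 (1.71%). Most of the 134 were named by their *Brd1*+/- difference, which the interaction contains. The count of 40 is therefore a description and no independent test. Values are the log2 difference in *Brd1*+/- mice minus that in WT mice. Among 7SL-like genes they were -5.29 for *Rn7s1*, -5.53 for *Rn7s2*, -7.36 for *Rn7s6*, -5.38 for *Gm47295*, -4.71 for *Gm26461*, -3.94 for *Gm24514*, -2.84 for *Gm23153*, -3.67 for *Gm24105* and -4.01 for *Gm47299*. In the Dlk1-Dio3 region they were -3.33 for *Gm37899*, -3.63 for *B830012L14Rik*, -5.14 for *Gm27379*, -4.19 for *Gm27596*, -3.43 for *Mir487b* and -3.17 for *Mir667*. Other noncoding genes had -4.34 (*Gm22009*), -1.26 (*Malat1*), -4.99 (*Gm31224*), -1.998 (*9530059O14Rik*), -0.73 (*Peg13*), -3.02 (*Gm19409*) and -2.86 (*Gm42908*), while *mt-Tp* had 0.96. *Gm42908* is listed at 0 in both WT groups and in FLX mice, so its value is set by the pseudocount. *Gm37899* and *B830012L14Rik* met the filter of 0.1 TPM through the *Brd1*+/- vehicle group alone when the treatments were compared in *Brd1*+/- mice.

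Protein-coding genes with a more negative FLX difference in *Brd1*+/- than in WT mice were *Proca1* (-1.95), *Mcc* (-1.02), *Slc4a8* (-1.18), *Slc6a11* (-2.38), *Gm10277* (-2.06), *B130006D01Rik* (-1.79) and *Psapl1* (-1.66, listed at 0 in all *Brd1*+/- FLX libraries). Those with a more positive difference in *Brd1*+/- than in WT mice were *Egr4* (2.28), *Egr2* (2.49), *Npas4* (1.62), *Nr4a1* (1.5), *Gadd45b* (1.3), *Inhba* (2.60), *Meig1* (4.49), *Hacd1* (1.05), *Riox2* (0.74) and *Ifrd1* (0.63).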

How the results depend on the processing

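Beside the 178 calls of the main test, no filter on low values gave 275, a TPM of at least 1 in 8 samples 24, quantile normalization 89 and 1 fit of all 48 libraries 415. Leaving out 1 library gave 88 to 166 calls (lowest without vehicle replicate 3), and 144 to 207 when the filter was set to 7 samples, a setting chosen after seeing the data. A replicate block gave 81 calls. Replicate numbers do not pair the libraries: correlations between same-numbered libraries were -0.22 to 0.149, and none was best with its own number. Protein-coding genes made up 0 to 7.23% of calls in these settings. Multi-exon coding calls (2) became 1 with a pseudocount of 0.01 or 1, 6 without a filter or without a trend, 4 with median-ratio scaling, 23 in the fit of all libraries, 0 with a TPM of at least 1, with the replicate block or when tested alone, and 0 to 5 without 1 library. The interaction's 455 calls became 259 with a TPM of at least 1 and 286 with quantile normalization. The 79 WT calls became 51 without a filter, 128 with a TPM of at least 1, 27 without a trend, 10 in the fit of all libraries, 45 with the code ranges and 0 with the replicate block. The cause of these changes was not tested. The multi-exon coding total reversed to 0.0336 with median-ratio scaling and ran from -0.0161 to 0.0129 without 1 library. Without 1 library the single-exon coding total ran from -0.0336 to 0.0714, small noncoding from -0.155 to -0.106 and other noncoding from -0.193 to -0.126. The intronic total, -0.33, lost its call in the paired test of the replicate block (exact permutation, adjusted *p* = 0.0703). Of 42 named called genes 17 lost the call in 156 of 998 values, and none reversed. Of 92 named genes not called 11 gained a call in 20 of 2368 values. Without 1 library, uncalled markers changed sign: the named gene Kcne2 (-0.41 to 1.3, lowest without FLX replicate 8), the named gene Aqp1 (-0.41 to 1.16, likewise), the named gene Drd2 (-1.16 to 0.0609), the named gene Ppp1r1b (-0.0482 to 0.914) and the named gene Rgs9 (-0.76 to 0.194, with 0.19, 0.01 and 0.02 among the values that reversed). TPM gives no depth, so genes near 0.1 TPM cannot be weighed by counting error.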
